A study of Schmidtea mediterranea with 6 samples.

Results

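In whole planarians fed double-stranded RNA against Smed-myb-1, 38 transcripts that averaged at least 10 CPM in control animals fell to at most 50% of their control level. CPM are reads per 1000000 reads assigned to transcripts in a library. Members were chosen by their CPM in these 6 libraries. A transcript belonged to the set when its mean over the myb-1 RNAi libraries, divided by its mean over the control RNAi libraries, was at most 0.5, and when its highest myb-1 RNAi library was below its lowest control library. The 38 members came from 9815 transcripts that reached 10 CPM on average in control animals (0.387% of them) and from 80979 transcripts in all. Because the rule used the values of both groups, the levels and differences of the members are a description, and no test of their fall is given as support for it. The quantity called the remainder is the mean myb-1 RNAi level as a percentage of the mean control level, and members are ranked by it, with rank 1 for the lowest.

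The losses were graded but not evenly so. In 9 members less than 0.42% of the control level remained, in 5 members between 2.95% and 23.7% remained, and in 24 members between 30.6% and 49.2% remained. The median remainder of the 38 was 31.2%, while the median over all 9815 transcripts from 10 CPM was 99.5%, with 67.0% at percentile 1. The bounds of these groups of members were placed after their values were seen.

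The animals were Schmidtea mediterranea, a freshwater flatworm, kept as an asexual clonal line that the growth protocol names CIW4; the strain field gives 6 different CIW names for the 6 samples and was not used. The myb-1 RNAi group and the control RNAi group each had 3 samples of 30 intact animals, described as wild type before feeding, and the labels call them biological triplicates. All animals were starved for 1 week, then fed 3 times over 1 week with double-stranded RNA against Smed-myb-1 or against unc22, a nematode muscle gene used as a control target, and their RNA was extracted 6 days later. The libraries were made from poly(A)-selected RNA of all tissues together. In such bulk samples fewer cells of a type and less RNA per cell cannot be told apart.

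Planarians replace their tissues from dividing stem cells called neoblasts. In the epidermal lineage, neoblasts committed to epidermis stop dividing, move outward beneath the surface, and pass through early and late progeny states, each marked by its own set of abundant transcripts, before they join the outer epithelium. Myb proteins are DNA-binding transcription factors of animals and plants, and the series title places Smed-myb-1 at the early state of this lineage. The deposited tables pair the transcript identifiers (SmedASXL numbers) with no gene names, so no member is linked here to the progeny states, to a cell type or to a function. For the same reason the level of Smed-myb-1 itself and the markers of the tissues were not analysed here.

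The libraries held 30311289 to 41145013 reads assigned to transcripts, so that 1 read stood for 0.0243 to 0.0330 CPM. A count of 0 allowed up to 3 reads, or 0.0729 to 0.0990 CPM. CPM are not divided by transcript length, so the order of levels between transcripts is an order of read shares; a remainder compares a transcript with itself and does not depend on its length.

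The most complete loss was that of SmedASXL_014068, the member of rank 1. It had 0.243, 0.231 and 0.0581 CPM in libraries 1, 2 and 3 of myb-1 RNAi animals, against 373, 406 and 391 CPM in libraries 1, 2 and 3 of control animals; triples of values below keep this order of libraries. All 3 myb-1 RNAi libraries lay near the limit of counting, with 10, 7 and 2 reads, and the 3 control libraries lay close together. The mean was 0.177 ± 0.104 CPM in myb-1 RNAi animals and 390.0 ± 16.9 CPM in control animals (SD, n = 3 each). By the ratio of summed reads it was 2174-fold lower, with an exact 95% counting interval of 1392-fold to 3612-fold.

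At rank 2 the transcript had 0.729, 0.495 and 0.523 CPM in the myb-1 RNAi libraries, against 796, 826 and 840 CPM in control libraries. At rank 3 it had 0.292, 0.198 and 0.232 CPM in myb-1 RNAi libraries, against 332, 298 and 323 CPM in control libraries. In both, the groups lay far apart, with the lowest control library 1091-fold and 1023-fold above the highest myb-1 RNAi library. Their remainders of 0.0710% ± 0.0156 and 0.0757% ± 0.0149 (SD of the 3 myb-1 RNAi libraries over the control mean) differed by less than their spread.

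Rank 4 had 1.22, 0.594 and 0.784 CPM in myb-1 RNAi libraries, against 936, 719 and 712 CPM in control libraries. It was the most variable of these 9 members among control animals, with library 1 above the other 2 in both groups. Rank 5 had 0.243, 0.330 and 0.465 CPM in myb-1 RNAi libraries, against 273, 279 and 297 CPM in control libraries. In this member library 3 was the highest in both groups, so the order of libraries was not common to all members with little left. The remainders were 0.110% ± 0.0403 for rank 4 and 0.122% ± 0.0395 for rank 5.

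The member of rank 6 stood apart from the other 8 by its low control level. It had 0.0972, 0.0330 and 0 CPM in myb-1 RNAi libraries, against 19.99, 19.1 and 18.3 CPM in control libraries. These myb-1 RNAi values were 4, 1 and 0 reads, so its remainder of 0.227% was the least certain of the 38. The exact 95% counting interval, from 5 reads against 2043, was 0.0802% to 0.578%. Without myb-1 RNAi library 1 the remainder was 0.0863%, and without library 3 it was 0.340%.

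The remaining members under 1% kept slightly more. At rank 7 the levels were 0.583, 0.495 and 0.436 CPM in myb-1 RNAi libraries, against 194, 190.3 and 205 CPM in control libraries. At rank 8 they were 0.802, 0.792 and 0.784 CPM in myb-1 RNAi libraries, against 241, 219 and 223 CPM in control libraries. At rank 9 they were 1.51, 1.52 and 1.34 CPM in myb-1 RNAi libraries, against 388, 319 and 346 CPM in control libraries. The myb-1 RNAi libraries of rank 8 held 33, 24 and 27 reads, so the SD of 0.00896 CPM between them is smaller than counting error alone would give. The remainders of ranks 7, 8 and 9 were 0.257% ± 0.0378, 0.348% ± 0.00393 and 0.414% ± 0.0290. The exact 95% counting intervals of ranks 7 and 8, 0.195% to 0.339% and 0.278% to 0.432%, overlapped. The members of ranks 4 and 9 carry consecutive identifier numbers, the only such pair among the 38; whether they share sequence was not analysed here.

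**Figure D1:**
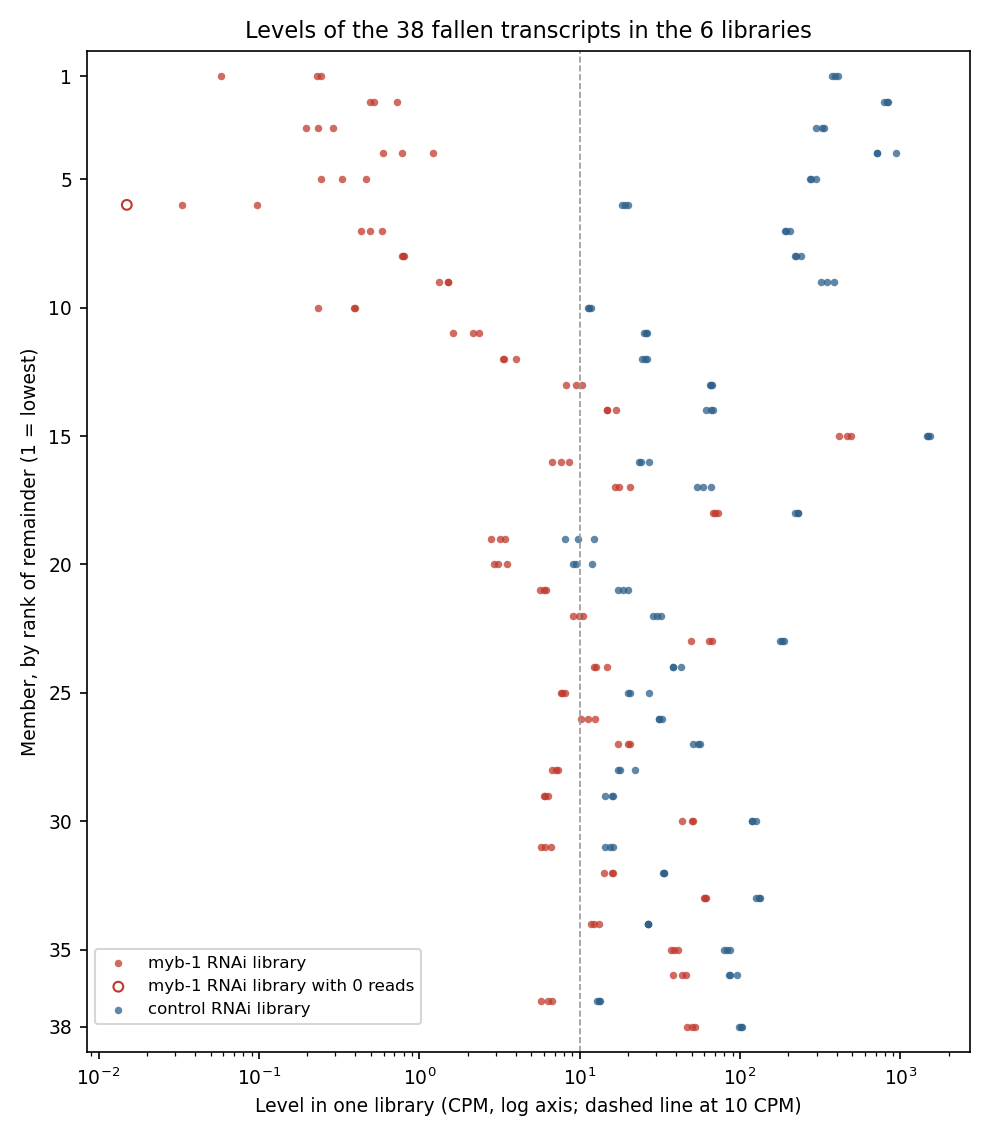
Level of each of the 38 members in each of the 6 libraries, in CPM on a log axis, with members ordered down the page by remainder. Red points are the 3 myb-1 RNAi libraries, blue points the 3 control RNAi libraries, and the open circle marks the myb-1 RNAi library with 0 reads of the rank 6 member, placed at an arbitrary position on the left. In ranks 1 to 9 the red points lie between 0 and 1.52 CPM, and from rank 15 on the red and blue points lie within a factor of 3.27 by their means.

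Between ranks 9 and 10 the remainder stepped up 7.12-fold, the widest step between neighbours. Rank 10 had 0.389, 0.396 and 0.232 CPM in myb-1 RNAi libraries, against 11.3, 11.5 and 11.7 CPM in control libraries. Its remainder was 2.95% ± 0.80, and its myb-1 RNAi level of 0.339 CPM was below that of rank 9, at 1.45 CPM, although a larger share of it was left. Rank 11 had 2.36, 2.18 and 1.63 CPM in myb-1 RNAi libraries, against 26.1, 26.1 and 25.2 CPM in control libraries, a remainder of 7.96% ± 1.48. Rank 12 had 4.01, 3.40 and 3.31 CPM in myb-1 RNAi libraries, against 26.2, 25.5 and 24.3 CPM in control libraries, a remainder of 14.1% ± 1.5. Ranks 11 and 12 thus had nearly the same control level and remainders apart by more than their spread. The members of ranks 13 and 14, given to complete these 5 after their values were seen, had remainders of 14.2% ± 1.7 and 23.7% ± 1.9. All 5 members between 1% and 25% had control means of 11.5 to 65.7 CPM, and 8 of the 9 members under 1% had control means of 196 to 820.3 CPM.

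The remainders formed few steps that exceeded the spread of single libraries. For each member the remainder was taken over all 9 pairs of 1 myb-1 RNAi and 1 control library, and the ranges of neighbouring ranks were compared. Of the 37 neighbouring pairs, 32 overlapped. The 5 that did not overlap followed ranks 7, 9, 10, 11 and 13. These ranges leave out counting error, and the exact counting intervals were apart as well in 4 of the 5, the step after rank 7 being the exception. After rank 14 the library ranges of all neighbours overlapped.

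**Figure D2:**
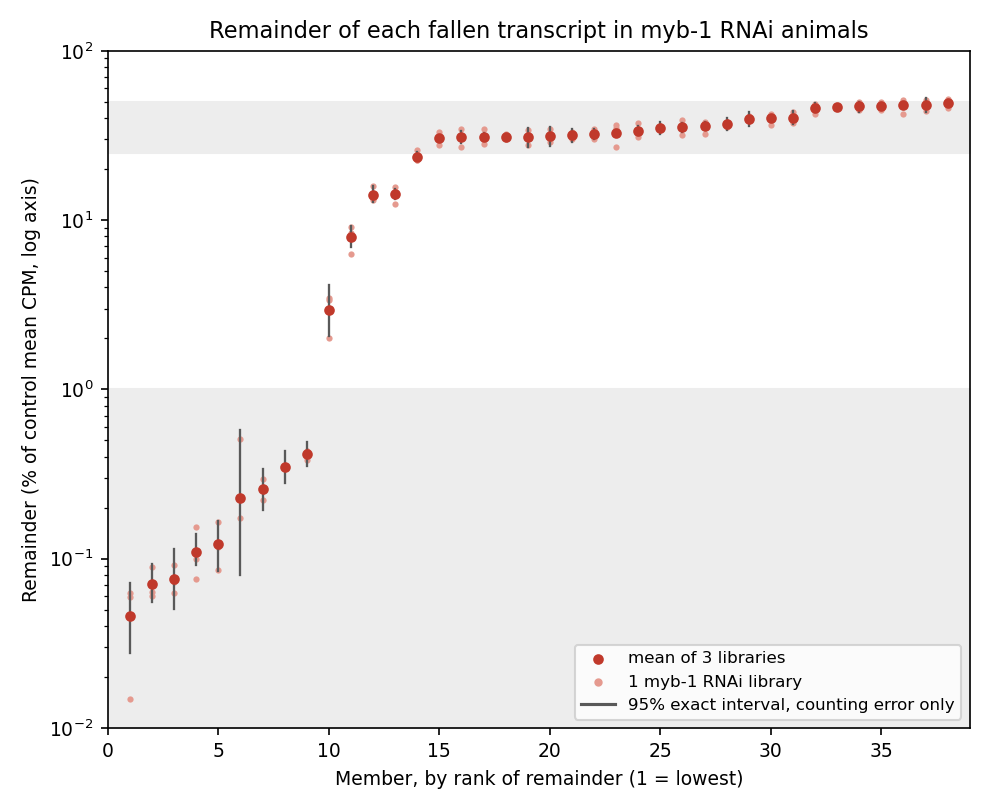
Remainder of each member in myb-1 RNAi animals, as a percentage of its control mean CPM on a log axis, against its rank. Large points are means of 3 libraries, small points single myb-1 RNAi libraries (the library with 0 reads of rank 6 is not drawn), and vertical lines exact 95% intervals of the ratio of summed reads, which cover counting error only; grey bands span values under 1% and from 25% to 50%. The points climb from 0.0455% at rank 1 to 0.414% at rank 9, pass through 5 members, and flatten from 30.6% at rank 15 to 49.2% at rank 38.

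SmedASXL_009684, the member of rank 15, had the most reads of the set. It had 496, 462 and 413 CPM in myb-1 RNAi libraries, against 1521, 1489 and 1472 CPM in control libraries. The groups lay far apart, with the highest myb-1 RNAi library 2.97-fold below the lowest control library, yet its remainder was 30.6% ± 2.8 and its mean myb-1 RNAi level, 457 ± 42 CPM, exceeded the control level of all but 2 other members. It ranked 41 in reads among all transcripts in control animals and 250 in myb-1 RNAi animals, whereas SmedASXL_014068 ranked 293 in control animals and 39692 in myb-1 RNAi animals.

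Many remainders lay close above 30%. Ranks 15 to 24, which are 10 members, lay between 30.6% and 33.4%, although their control means ranged from 10.1 to 1494 CPM. These 10 were picked by their remainders, so that their closeness is no finding; the SD between libraries was 1.15 to 4.92 percentage points for each of them. Among them, rank 18 had 73.3, 69.9 and 68.2 CPM in myb-1 RNAi libraries, against 229, 221 and 229.9 CPM in control libraries, a remainder of 31.1% ± 1.2. The member of rank 19, with the lowest control mean of the 38, had 2.79, 3.17 and 3.43 CPM in myb-1 RNAi libraries, against 9.76, 8.16 and 12.2 CPM in control libraries. Its remainder, 31.1% ± 3.2, was the same as that of rank 18 within the spread, but it rested on 329 reads in myb-1 RNAi animals against 7484 for rank 18. Rank 20 had 3.09, 2.94 and 3.51 CPM in myb-1 RNAi libraries, against 9.50, 9.12 and 11.9 CPM in control libraries, a remainder of 31.3% ± 3.0.

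The other members above 25% were spread unevenly up to the limit. Between 34% and 38% there were 4 members, between 38% and 42% there were 3, between 42% and 46% there were 0, and between 46% and 50% there were 7. The last 3 members lay just inside the limit of the rule. Rank 36 had 43.8, 45.9 and 38.02 CPM in myb-1 RNAi libraries, against 96.0, 85.7 and 86.8 CPM in control libraries. Rank 37 had 6.71, 6.33 and 5.78 CPM in myb-1 RNAi libraries, against 13.4, 12.8 and 13.2 CPM in control libraries. Rank 38 had 52.7, 49.9 and 46.7 CPM in myb-1 RNAi libraries, against 98.6, 101.7 and 103 CPM in control libraries. The groups of libraries stayed apart in all 3, by 1.87-fold to 1.91-fold between the nearest libraries of the groups, and the smallest such gap of all 38 members was that of rank 36. Their remainders of 47.5%, 47.7% and 49.2% had SDs of 2.98 to 4.54 points, which reach the limit of 50%.

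Transcripts just outside the rule continued the series. The 5 with the lowest remainders above 50% stood at 50.8% to 53.2%, from control means of 15.2 to 100.7 CPM, and 11 transcripts with groups that did not overlap lay between 50% and 55%. Below the limit of 10 CPM, the 3 transcripts closest to it that met the other conditions had control means of 9.22, 8.77 and 8.48 CPM. The transcript at 8.77 CPM had 0, 0.132 and 0 CPM in myb-1 RNAi libraries, against 9.36, 8.44 and 8.52 CPM in control libraries, a remainder of 0.502%. All 4 of its myb-1 RNAi reads came from library 2, and the exact 95% counting interval was 0.117% to 1.11%. Without library 2 it had 0 reads in myb-1 RNAi animals, and without library 1 or library 3 its remainder was 0.752%.

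A further 4 transcripts met the ratio and were left out because their libraries overlapped between groups. The one with the most reads had 18322, 6605 and 5236 CPM in myb-1 RNAi libraries, against 8234, 12200 and 48052 CPM in control libraries. In all 4, myb-1 RNAi library 1 was the highest of its group and control library 3 the highest of all 6, and the authors' deposited table gave adjusted p of 0.748 to 0.808. With them, 42 transcripts met the ratio (0.428% of those from 10 CPM). Non-overlap downward by itself was common, at 14.6% of the transcripts from 10 CPM.

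The members were unevenly spread over classes of control read share. From 100 CPM in control animals, 14 of 1610 transcripts (0.870%) met the rule, and 8 of these 14 had under 1% left. Between 10 and 100 CPM, 24 of 8205 (0.293%) met it, and 1 had under 1% left. Between 1 and 10 CPM, where the rule does not reach, 54 of 10112 (0.534%) met its ratio and non-overlap, and 2 had under 1% left. In this class under 1% lies near the limit of counting, so that number is bounded by depth. Over the 38 members Spearman's rho between control level and remainder was -0.389, and over the 24 members above 25% it was 0.0139; the points share the same 6 libraries and the remainder has the control level as its denominator, so these are descriptions. In the other direction, 2 transcripts from 10 CPM (0.0204%) were at least 2-fold higher in myb-1 RNAi animals with groups that did not overlap. Between 1 and 10 CPM there were 11 such transcripts.

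**Figure D3:**
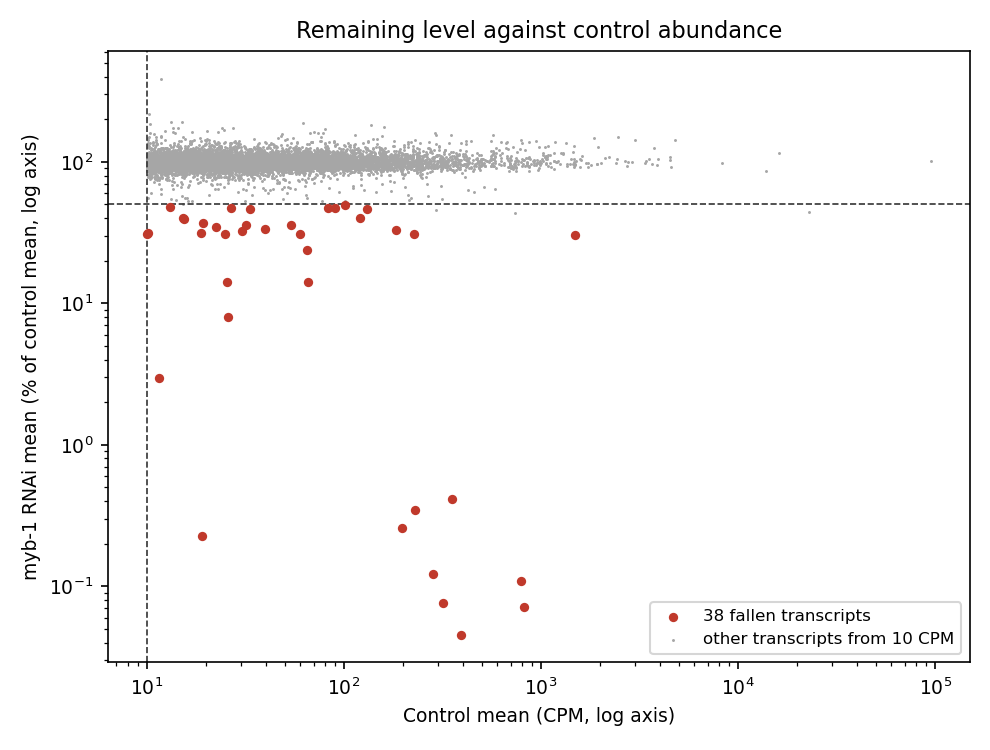
Mean level in myb-1 RNAi animals as a percentage of the control mean, against the control mean in CPM, both on log axes, for transcripts from 10 CPM. Red points are the 38 members, grey points the other transcripts, and dashed lines mark 50% and 10 CPM. The grey points centre near 99.5%, and under 1% there are 9 red points, 8 of them at or above 196 CPM.

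Summed over the 38 members, the level was 1080, 1016 and 953 CPM in myb-1 RNAi libraries, against 6640.4, 6302 and 6383 CPM in control libraries. The set took 0.102% ± 0.00633 of the reads of myb-1 RNAi animals and 0.644% ± 0.0177 of those of control animals (SD, n = 3 each), so that 15.8% of its control level remained. The groups of members were cut by remainder, so their unlike shares of what was left follow largely from that sorting. The 9 members under 1% made up 0.492% of the summed level in myb-1 RNAi animals and 52.7% in control animals, and they carried 62.5% of the loss. The 24 members above 25% made up 96.5% of the summed level in myb-1 RNAi animals and 44.3% in control animals, and they carried 34.5% of the loss. SmedASXL_009684 alone made up 44.9% of the sum in myb-1 RNAi animals and 23.2% in control animals, and it carried 19.1% of the loss, the most of any member. Without it, 11.3% of the summed control level remained. When the members were chosen anew without myb-1 RNAi library 1, the set held 43 transcripts. All 38 members and the 4 transcripts described above were among them, and 23.9% of the summed control level of this set remained.

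The residual level also differed between the 3 myb-1 RNAi libraries in a direction many members shared. Their summed remainder was 16.8%, 15.8% and 14.8% of the control mean in myb-1 RNAi libraries 1, 2 and 3, and library 1 had the highest sum in each of the 3 groups of members. For the median member, library 1 stood at 113% of library 3, against 98.9% for the median of the 9777 other transcripts from 10 CPM (the rank 6 member, with 0 reads in library 3, has no ratio). Relative to those other transcripts, members were thus at 114% in library 1 over library 3, a value that no scaling of whole libraries changes. It was 131% for the members under 1%, 122% for those between 1% and 25% and 108% for those above 25%. For the same groups, library 1 over library 2 gave 119%, 110% and 106%. Library 2 over library 3 gave 97.6%, 127% and 106%, so this order of groups was not common to all pairs. The members under 1% rest on 5 to 154 reads each. Of the 38 members, 32 lay above the median of the other transcripts in library 1 over library 3, the rank 6 member included. In CPM, the full order of library 1 over 2 over 3 held in 16 of the 38 (42.1%), against 15.3% of the other transcripts. Unlike the ratio of 114%, such counts of order depend on the scaling. In CPM, library 1 exceeded library 3 in 84.2% of the members and 43.6% of the other transcripts. With TMM scaling it did so in 86.8% and 81.0%, and with median-of-ratios scaling in 92.1% and 88.0%. Under those scalings most other transcripts thus shared this direction. Among control libraries, members stood at 98.5% in library 2 over library 3, against 105% for the other transcripts, with 2 of 38 above the median of the others. Members share their libraries and are not replicates, so these shares describe 6 libraries and carry no test.

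**Figure D4:**
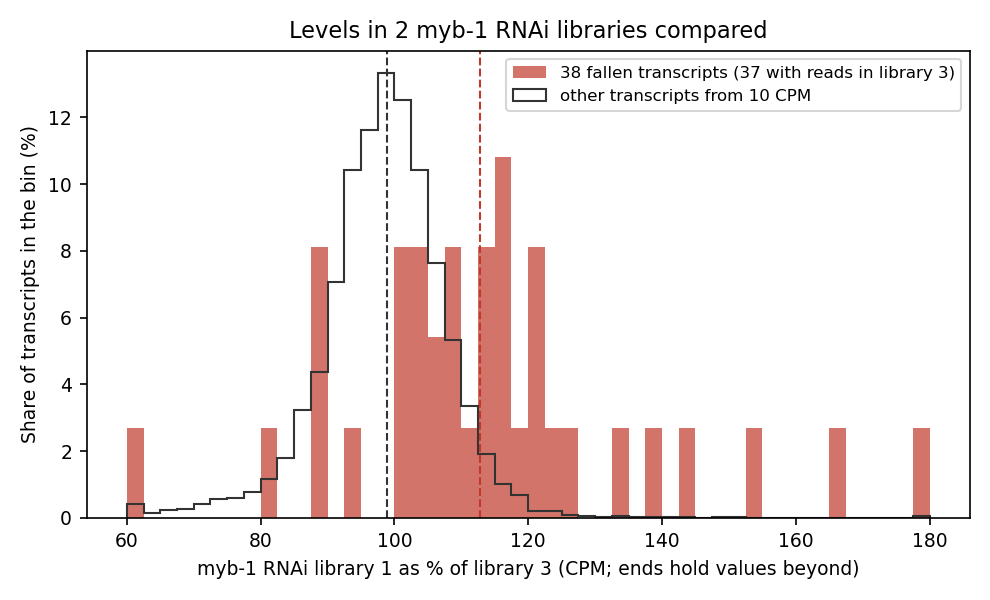
Distribution of the level in myb-1 RNAi library 1 as a percentage of that in myb-1 RNAi library 3, as the share of transcripts in each bin. Red bars are the members with reads in library 3 and the black outline the other transcripts from 10 CPM; dashed lines mark the medians, 113% for the members and 98.9% for the others.

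In CPM, the only scaling on which it was taken, replicate spread of the members was wider in the group with less left. The median coefficient of variation of the members was 9.27% among myb-1 RNAi libraries and 4.50% among control libraries, against 4.23% and 5.22% for the same groups in the other transcripts from 10 CPM. In the 24 members above 25%, where counts are larger, it was 7.43% among myb-1 RNAi libraries and 5.47% among control libraries. In the 9 members under 1% it was 21.98% among myb-1 RNAi libraries and 4.54% among control libraries, at 5 to 154 reads per member over the 3 myb-1 RNAi libraries together.

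The rule was also applied to 2 libraries of each group and the remainder read in the library of each group that was left out, in all 9 ways. It then chose 36 to 45 transcripts, of which 35 to 38 were among the 38 members. The 38 members had been chosen with all 6 libraries, so this overlap was largely fixed in advance. The 9 ways reuse the same 6 libraries and are not independent. In the libraries left out, the median remainder of the chosen transcripts was 29.6% to 35.2%, against 30.1% to 33.6% in the libraries that chose them, while the median of all transcripts from 10 CPM was 96.6% to 105%. Of the transcripts chosen, 33 to 37 were at or below 50% in the left-out libraries. In each of the 9 ways, 9 chosen transcripts were under 1% in the libraries that chose them and 9 in those left out. With 1 library per group on the left-out side these values have no error of their own. The highest left-out value was 47.9% to 242%; values above 100% came up in 5 of the 9 ways.

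In the fit across all transcripts, limma on log2(CPM + 0.5) called 527 of 25832 tested transcripts lower in myb-1 RNAi animals at a Benjamini-Hochberg adjusted p below 0.05 (2.04%), beside 717 higher. Those called lower included 376 of the 9815 from 10 CPM (3.83%). All 38 members were tested and all 38 were among those called, with adjusted p of at most 3.76e-05; since the rule used this contrast, nothing is read from that count. On this scale their changes ran from -9.57 to -1.01. The scale compressed the lowest members, such as rank 6, which changed by -5.18 (SE 0.13) on it and by -8.78 as the log2 of its ratio of means. In the authors' deposited table of DESeq2 results the 38 members had log2 changes of -11.04 (SE 0.34) for SmedASXL_014068 to -0.98 (SE 0.09) for rank 38, and SmedASXL_009684 had -1.67 (SE 0.09). That table called 317 of the 19748 transcripts with an adjusted p lower (1.61%), all 38 members among them.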

How the data were processed

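Per the labels' protocols, RNA-seq libraries of whole animals came from a TruSeq kit with poly(A) selection. Tools listed in the submitters' processing notes are bcl2fastq 1.8.3, Bowtie2 2.2.4 and DESeq2; what each did, how reads were counted and on which build is not given in the sources used here. One deposited table gives CPM per transcript and lane, scaled by the authors to mapped reads; its columns are lettered, not numbered as the samples are, so 6 of them (lane 2) were tied to groups only and used as an alternative, and 6 columns were not used. The other holds the authors' DESeq2 results as deposited (log2 fold changes, their standard errors and Wald statistics as scores, p-values and adjusted p-values) and 6 columns of normalised counts, a signal that the authors made, from the values, by dividing read counts by 1 factor per library. All of these values (100%) were whole multiples of 1 step per library within 0.001, which gave back the reads.

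CPM were computed from the normalised counts over each library's sum, without a row named * that names no transcript and held 5.42% to 6.24% of reads. Transcripts that reached 0.5 CPM in 3 or more libraries entered the fit, made on log2(CPM + 0.5) with group as its term and both tails in limma 3.58.1 under R 4.3.3 (eBayes, trend and robust). Intervals are exact conditional binomial on summed reads (scipy 1.17.1); like the limits for a count of 0, they hold counting error alone, since the reads carry no molecular identifiers. On simulated data for this comparison (25832 transcripts, 200 changed, dispersion 0.005) the fit recovered 83.6% of the 1.5-fold changes, 98.5% at 2-fold and 100% at 4-fold. False calls made up 3.59%. All simulated transcripts had the same dispersion, and changes were placed only above a lower limit of mean CPM. The spread of the real libraries was uneven, so these rates need not hold for them. Libraries of a group differed beyond sampling noise (chi-square per transcript 2.83 to 38.3), which does not show that they are independent. The largest values, 38.3 and 27.2, both involved control library 3. Each library was counted as a sample because the labels call them biological triplicates. The labels do not say that samples came from separate cultures, and p-values measure the spread between these samples. Counting may split reads between similar transcripts, and no strand setting is given, so transcripts are not taken as genes.

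The rule and the members were chosen with earlier results of these data known. Values per library are given for ranks 1 to 12, the middle 3, the last 3, the 5 highest and the lowest in control level; 2 identifiers are printed, the lowest remainder and the highest control level. Transcripts at the edges of the rule were picked after their values were seen. No sequences, coordinates or marker lists were used here. Alternatives were other scalings, pseudocounts, filters, rule limits, a single lane, a replicate term, each library left out, and count tests with edgeR 4.0.16 and DESeq2 1.42.0.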

Additional observations from a re-analysis of the deposited data

How the results depend on the processing

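The 38 members were called lower in the limma fit and in 16 other settings. These included edgeR and DESeq2 on the recovered reads and the authors' deposited adjusted p. The rule used this contrast, so nothing is read from that count. In the limma fit 2.04% of all tested transcripts were called lower. The set itself held 36 members with TMM or median-of-ratios scaling, 38 on lane 2 alone (37 shared), and 36 to 43 with 1 library left out; it held 61 transcripts with a ratio of at most 0.6 and 30 at 0.4, 46 from a control mean of 5 CPM and 29 from 20 CPM, and 42 without the condition on overlap. Its summed level was 11.3% of control without the most abundant member, and 15.2% to 23.9% with 1 library left out and members chosen anew. The highest of these came without myb-1 RNAi library 1, when transcripts whose libraries otherwise overlap entered the set. The median remainder was 30.6% to 32.9% with 1 library left out. Transcripts called lower over all tested numbered 435 with TMM (844 higher), 387 with median-of-ratios scaling (734 higher), 317 in the deposited table (766 higher) and 285 to 525 with 1 library left out, with the low value 285 on omitting control library 2 and 338 on omitting myb-1 RNAi library 2; the cause was not tested. The replicate block gave 527, and same-numbered libraries correlated at 0.0645, 0.0312 and 0.00941 in their deviations, so the numbers were not taken to pair them. Lane 2 alone, the sum without 1 member and totals without the 4 overlapping transcripts were tried after seeing the data. Of 152 values of the 19 named members under other scalings or without 1 library, 2 moved by 1.5 times or more, both of rank 6. Depth limits the members under 1%, which rest on 5 to 154 reads each.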
